A study of Mus musculus with 6 samples.

Results

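The 10 genes described here are Dlk1, Dner, Notch1, Notch2, Notch3, Jag1, Hes1, Hey1, Heyl and Nrarp. They were taken by symbol, with all probes that the platform annotation gives them: 11 of 25697 probes, or 10 of 16593 annotated genes. Notch2 had 2 probes and each other gene 1. The choice of these genes was made with earlier results of the same comparison known, in which Dner and Dlk1 stood out, so their differences between groups are given as a description, without a p-value.

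Illumina bead arrays were run on RNA of sorted cells that carried OC-GFP, in which the osteocalcin promoter drives green fluorescence, from 5 to 7 week old C57Bl6/J mice of mixed sex. In the cementoblast group, the 3 samples came from extracted molars (the labels name the source as periodontium) and pooled 7, 10 and 6 mice. In the osteoblast group, the 3 samples came from calvaria, the flat bones of the skull, and pooled 6 mice each. All samples carry the reporter, so both groups were gated on the same mineralising-cell gene, and the calvarial digest alone had its first fraction discarded.

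Notch receptors are cut and release their intracellular part to the nucleus when a ligand of the Delta or Jagged family on a neighbouring cell binds them. There it joins the DNA-binding protein Rbpj and switches on genes such as those of the Hes and Hey repressors and the feedback inhibitor Nrarp. In the skeleton, Notch signalling is known to hold back the maturation of osteoblast precursors. Dlk1 and Dner are membrane proteins with EGF repeats of the kind found in Notch ligands but without the domain by which Delta and Jagged bind the receptor.

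Values are log2 signals after background correction and quantile normalization, on which background lies near 4, and a probe counts as detected on an array at a detection p under 0.05. The arrays detected 9791 to 10059 probes in cementoblasts and 8480 to 13347 in osteoblasts. The lowest detected signal was 4.75 to 4.80 on the cementoblast arrays, 5.11 on osteoblast replicate 1 and 4.37 and 4.40 on osteoblast replicates 2 and 3, so weak genes are seen least well on osteoblast replicate 1. All 8 osteoblast markers set up as a check, among them Col1a1 and Bglap2, were detected on every array, and no marker list for cementoblasts was set up. Signal from other cell types was uneven within a group. Cementoblast replicates 1, 2 and 3 detected 9, 8 and 0 of 10 epithelial genes, against 0, 1 and 0 on osteoblast replicates 1, 2 and 3.

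Dlk1 was well above background on cementoblast replicates 1 and 2, weaker on replicate 3 (5.69) and at the edge of detection in osteoblasts. Dner was several-fold weaker in cementoblasts than in osteoblasts, though detected on every array. Among the genes of the core pathway, Hes1 was detected everywhere at similar levels, Notch1, Notch3 and Hey1 were highest on cementoblast replicates 1 and 2, and Jag1, Heyl and Nrarp were near background. Of the 10 genes, 7 passed the filter of detection on at least 3 arrays: 5 lay higher and 2 lower in cementoblasts, where 47.5% of all genes tested lay higher. Measured on cementoblast replicate 3 only, Notch1, Notch2, Notch3 and Hey1 lay lower. The median difference of the 7 over all arrays, cementoblast minus osteoblast, was 0.30 on the log2 scale, beside -0.02 over all 8111 genes tested. One gene of the 7, Dner, was called lower by limma at an adjusted p under 0.05, beside 0.321% of all genes called in either direction, 0.148% called higher and 0.173% called lower. In 2 of the 7, Dlk1 and Dner, the arrays of the groups did not overlap, beside 11.3% of all genes, 5.72% with cementoblasts higher and 5.57% with cementoblasts lower. The comparison is the one the genes were chosen from, so nothing is read from these shares. The Dner call was lost without cementoblast replicate 1 or 2 or osteoblast replicate 2 or 3, and without cementoblast replicate 3 both Dlk1 and Dner were called.

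**Figure D1:**
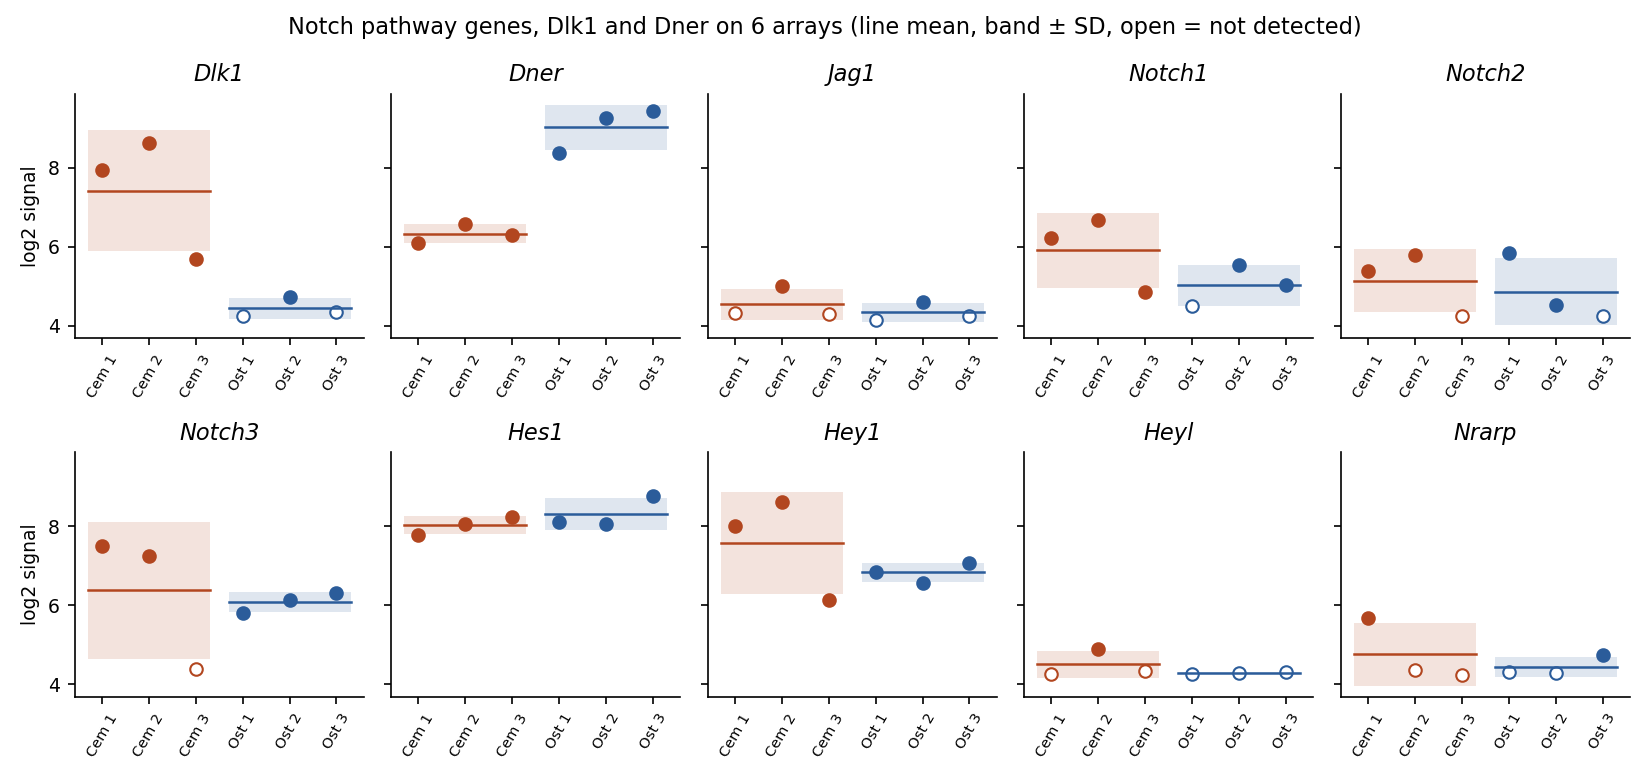
Log2 signal (y axis) of each of the 10 genes on the 3 cementoblast arrays (Cem) and the 3 osteoblast arrays (Ost), with the group mean as a line and the SD as a band; open circles were not detected, and Notch2 is shown by its brighter probe. Dlk1 lies at 5.69 or above in cementoblasts and at 4.73 or below in osteoblasts, and Dner at 6.58 or below in cementoblasts and 8.37 or above in osteoblasts.

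Dlk1, the non-canonical ligand also known as preadipocyte factor, which holds back the differentiation of fat and bone precursors, had log2 signals of 7.93, 8.63 and 5.69 on cementoblast replicates 1, 2 and 3, against 4.24, 4.73 and 4.34 on the osteoblast arrays. Every cementoblast array lay above every osteoblast array, and cementoblast replicate 3 lay well below the other two. Dlk1 was detected on 3 of 3 cementoblast arrays and on 1 of 3 osteoblast arrays, replicate 2. Dlk1 averaged 7.41 ± 1.54 (SD, n = 3) in cementoblasts and 4.44 ± 0.26 (SD, n = 3) in osteoblasts, a log2 difference of 2.98 (SE 0.68) taken against signals near background, so no fold is given. Without background correction the difference was 1.24. In sorted pools of this kind, fewer cells that express a gene and less of its RNA per cell cannot be told apart.

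Before background correction the groups overlapped. The non-normalized Dlk1 signal was 138, 175 and 94.4 on the cementoblast arrays, against 79.4, 106 and 107 on the osteoblast arrays. The arrays differ in background: the median of all probes was 82.7, 78.5 and 81.7 in cementoblasts and 81.2, 95.6 and 111.1 in osteoblasts. Set against that median, Dlk1 stood 55.6, 96.4 and 12.7 units above it in cementoblasts, against -1.78, 10.1 and -3.69 in osteoblasts. Cementoblast replicate 3 exceeded osteoblast replicate 2 by little on that scale, but taking off the median does not make the ranges of the arrays equal. Hes1 stood 139 units above the median on cementoblast replicate 3 and 422 on osteoblast replicate 2, at log2 signals of 8.23 and 8.05. The Dlk1 values as the submitters normalized them were 407, 608 and 153 in cementoblasts and 88.1, 106 and 93.7 in osteoblasts, again without overlap.

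**Figure D2:**
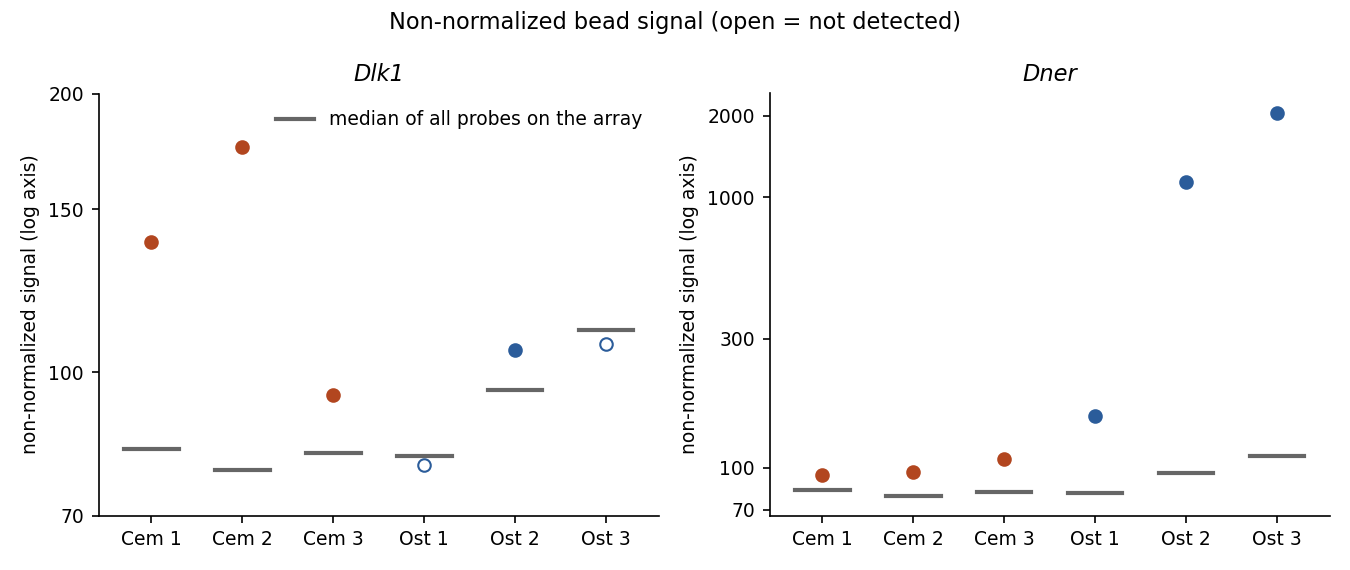
Non-normalized bead signal (y axis, log scale) of Dlk1 and Dner on each cementoblast (Cem) and osteoblast (Ost) array, with the median of all probes of that array as a grey line; open circles were not detected. Dlk1 on cementoblast replicate 3 (94.4) lies under osteoblast replicates 2 and 3 (106 and 107), whose array medians are higher. Dner reaches 2051 on osteoblast replicate 3, an array on which Hes1 (not shown here) had 1350.

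Dlk1 lies in an imprinted domain of mouse chromosome 12, in which Dlk1, Rtl1 and Dio3 are expressed from the paternal copy. Of 6 genes listed for the domain, Dio3 and Rtl1 were on the array; Meg3, Rian, Mirg and Begain were not analysed here. Dio3, the deiodinase that inactivates thyroid hormone, had log2 signals of 8.0, 8.61 and 6.08 on cementoblast replicates 1, 2 and 3, against 4.14, 4.37 and 4.69 on the osteoblast arrays. It followed Dlk1 across the arrays, including the lower level on cementoblast replicate 3. Dio3 was detected on all 3 cementoblast arrays and on 1 osteoblast array, replicate 3, while Dlk1 was seen on osteoblast replicate 2. Its difference of 3.16 (SE 0.60, n = 3 per group) did not pass the test over all genes (limma adjusted p = 0.109). Without cementoblast replicate 3, where Dio3 was low, the difference was 4.01 and passed (limma adjusted p = 0.00252), in a fit that called 166 genes. Leaving out the cementoblast array where Dio3 was lowest raises the difference by itself, so nothing is read from this pass. With array weights Dio3 passed as well (limma adjusted p = 0.0043), in a fit that called 199 genes. With any other array left out Dio3 did not pass (limma adjusted p from 0.302 to 0.392). Across the alternatives its adjusted p ran from 0.00252 to 0.407. Rtl1, a retrotransposon-derived gene between them, was detected on no array, at 4.23 to 4.29 in cementoblasts and 4.19 to 4.69 in osteoblasts.

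**Figure D3:**
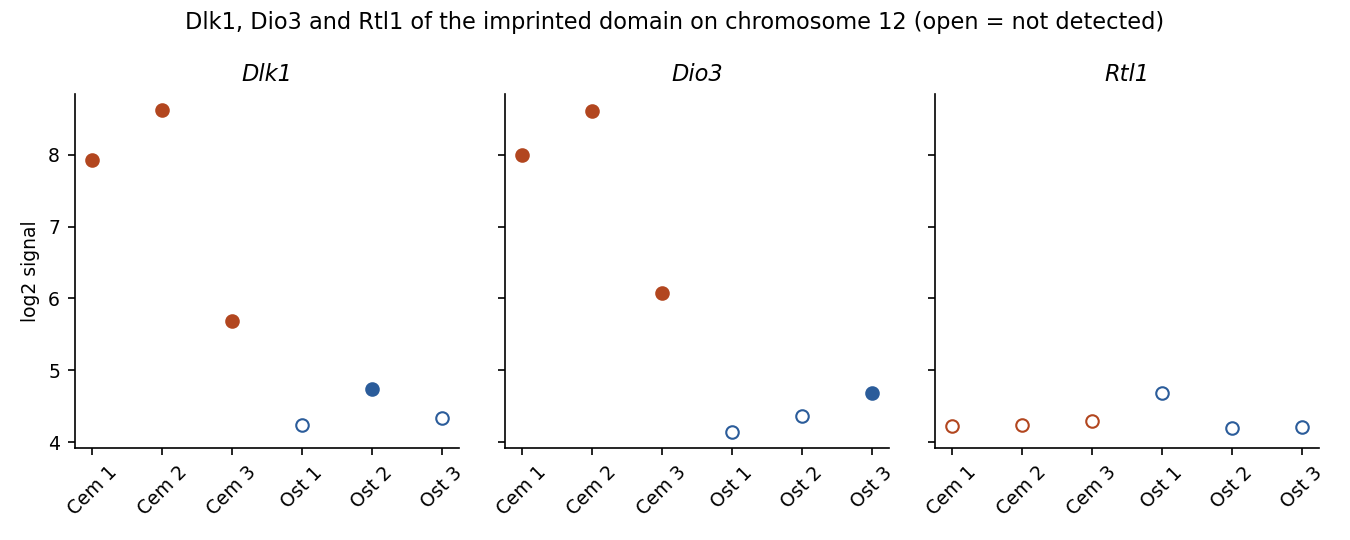
Log2 signal (y axis) of Dlk1, Dio3 and Rtl1 on the 3 cementoblast (Cem) and 3 osteoblast (Ost) arrays; open circles were not detected. Dlk1 and Dio3 share the order cementoblast replicate 2, 1, 3 and then the osteoblast arrays, and Rtl1 is at background throughout.

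The bases upstream of the start sites are shown for Dlk1 and Dio3, whose profiles over the arrays were alike, and for Dner, whose profile ran the other way. The starts of Dlk1 and Dio3 are 826 kb apart. Sequences are the 250 bases before the promoter start listed for each gene in GRCm38.p6. They lie at chr12:109452573-109452822 on the plus strand for Dlk1, chr12:110278980-110279229 on the plus strand for Dio3 and chr1:84696222-84696471 on the minus strand for Dner. For Dlk1 the listed start is base 109452823, while the RefSeq gene begins at base 109452485. The Dlk1 window therefore lies inside the annotated gene and not upstream of it. Sequences are written 5′ to 3′ with CpG dinucleotides in capitals.
Dlk1: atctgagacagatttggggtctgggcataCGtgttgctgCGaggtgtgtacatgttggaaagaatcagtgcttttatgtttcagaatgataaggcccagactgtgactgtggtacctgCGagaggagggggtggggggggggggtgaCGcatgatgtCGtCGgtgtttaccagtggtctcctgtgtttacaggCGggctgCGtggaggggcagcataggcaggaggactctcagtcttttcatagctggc
Dio3: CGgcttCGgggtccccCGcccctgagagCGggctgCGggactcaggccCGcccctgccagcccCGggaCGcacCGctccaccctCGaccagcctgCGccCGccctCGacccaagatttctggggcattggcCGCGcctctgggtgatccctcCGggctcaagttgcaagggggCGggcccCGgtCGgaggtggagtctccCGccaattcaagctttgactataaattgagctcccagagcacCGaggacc
Dner: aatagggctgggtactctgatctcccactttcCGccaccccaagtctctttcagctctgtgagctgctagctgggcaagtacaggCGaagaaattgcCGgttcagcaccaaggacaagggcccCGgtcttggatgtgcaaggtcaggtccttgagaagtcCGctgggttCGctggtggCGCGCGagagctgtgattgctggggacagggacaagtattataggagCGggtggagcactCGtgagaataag
Dlk1 held 8 CpG dinucleotides, Dio3 held 21 and Dner held 11, where the median of all promoters in the table was 6. The share of G or C was 54.8% for Dlk1, 69.6% for Dio3 and 56.8% for Dner.

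Of the 10 genes, 7 matched a RefSeq promoter; Hes1, Hey1 and Heyl did not. Each motif was searched on both strands of the same 250-base window. The core letters bound by Rbpj, TGGGAA, were in 0 of the 7 promoters and in 21.6% of all 32851 promoters of the table, and the longer form GTGGGAA, which contains the first, was in 0 of 7 and in 5.42%. The N box CACNAG, a site of Hes proteins, was in 5 of 7 (Dner, Notch1, Notch2, Notch3 and Nrarp) and in 36.7% of all promoters. The E box CACGTG was in Nrarp alone and in 6.02% of all, and CACGCG, another site of Hes and Hey proteins, was in Jag1 and Notch2 and in 7.62% of all. The letters TATAAA were in 0 of 7 and in 12.4% of all, and Dio3, which is not one of the 10, holds them. These are matches of letters in 1 window per start and not measured sites.

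Dner, a neuronal protein with Delta-like and Notch-like EGF repeats that has been described as a Notch ligand in glia, had log2 signals of 6.09, 6.58 and 6.31 on cementoblast replicates 1, 2 and 3, against 8.37, 9.26 and 9.43 on the osteoblast arrays. All 6 arrays detected it, and every cementoblast array lay below every osteoblast array, with a wider spread among the osteoblast arrays. Dner averaged 6.33 ± 0.24 (SD, n = 3) in cementoblasts and 9.02 ± 0.57 (SD, n = 3) in osteoblasts, a 6.48-fold lower signal in cementoblasts (log2 difference -2.69, SE 0.34). Without background correction the difference was -1.65 and Dner was not called. The non-normalized signals were 94.4, 96.3 and 108 in cementoblasts, against 156, 1135 and 2051 in osteoblasts. That scale is wider on osteoblast replicates 2 and 3, so the size of the Dner gap cannot be read from it. Hes1, whose groups overlapped after normalization, had non-normalized signals of 133, 142 and 221 in cementoblasts, against 142, 518 and 1350 in osteoblasts. For Dner, osteoblast replicate 1, the array with the fewest detected probes, was the lowest of its group on both scales. It was still above every cementoblast array. Measured on cementoblast replicate 3 only, which is 1 array, the Dner difference was -2.78. That array detected 0 of 10 epithelial markers and 9 of 10 neutrophil markers. The part of other cells in the Dner signal was not tested. Of 10 neuron markers, 6 were detected on no array, and 2, 1 and 2 were detected on the cementoblast arrays and 0, 1 and 2 on the osteoblast arrays.

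The receptors were detected less evenly. Notch1, the most widely expressed receptor, had log2 signals of 6.22, 6.67 and 4.85 on the cementoblast arrays, against 4.49, 5.54 and 5.04 on the osteoblast arrays, where replicate 1 did not detect it. Cementoblast replicates 1 and 2 lay above every osteoblast array and replicate 3 lay among them. The difference was 0.89 (SE 0.50, n = 3 per group), and 1.47 without cementoblast replicate 3. Notch3, the receptor of vascular smooth muscle and pericytes, had 7.50, 7.24 and 4.39 in cementoblasts, against 5.80, 6.13 and 6.30 in osteoblasts. It was highest on cementoblast replicates 1 and 2 and below detection on replicate 3, the lowest of all 6, so the difference of 0.30 (SE 0.76) averages arrays on both sides of the osteoblasts. Without cementoblast replicate 3 it was 1.30.

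Notch2, the receptor whose activating mutations in humans cause a disorder of bone loss, had 5.39, 5.78 and 4.25 at its brighter probe in cementoblasts, against 5.83, 4.51 and 4.24 in osteoblasts. One array of each group did not detect it, and the arrays of the groups were interleaved, with a difference of 0.28 (SE 0.53). Its other probe was detected on cementoblast replicates 1 and 2 and on no osteoblast array, at 4.99, 5.32 and 4.27 against 4.88, 4.32 and 4.26, and did not pass the filter. Jag1, the Jagged ligand, was detected on 1 array of each group, at 4.32, 5.00 and 4.29 in cementoblasts and 4.16, 4.60 and 4.25 in osteoblasts, both on replicate 2. No difference in Jag1 can be read at these signals.

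Among the response genes, Hes1, the repressor most often used to read Notch activity, had log2 signals of 7.79, 8.06 and 8.23 on the cementoblast arrays, against 8.11, 8.05 and 8.77 on the osteoblast arrays. It was detected on all 6 arrays, the groups overlapped, and the difference was -0.28 (SE 0.29, n = 3 per group), a 1.22-fold lower signal in cementoblasts. Hey1, a repressor of the Hey family, had 7.99, 8.61 and 6.14 in cementoblasts, against 6.85, 6.57 and 7.07 in osteoblasts. All 6 arrays detected it, and its cementoblast values lay above the osteoblast range on replicates 1 and 2 and below it on replicate 3. The difference was 0.75 (SE 0.58), a 1.68-fold higher signal in cementoblasts. It was -0.73 measured on cementoblast replicate 3 only and 1.48 (SE 0.30) without that array.

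Heyl, a Hey family member typical of vascular smooth muscle, was detected on cementoblast replicate 2 alone, at 4.26, 4.90 and 4.34 in cementoblasts against 4.26, 4.28 and 4.31 in osteoblasts. Nrarp, the ankyrin-repeat inhibitor that Notch induces, was detected on cementoblast replicate 1 and osteoblast replicate 3, at 5.67, 4.37 and 4.23 in cementoblasts against 4.30, 4.30 and 4.74 in osteoblasts. These genes and Jag1 did not pass the filter, and apart from Nrarp on cementoblast replicate 1 and Jag1 and Heyl on cementoblast replicate 2 their signals lay below 4.80, near the floor of 4.08.

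**Figure D4:**
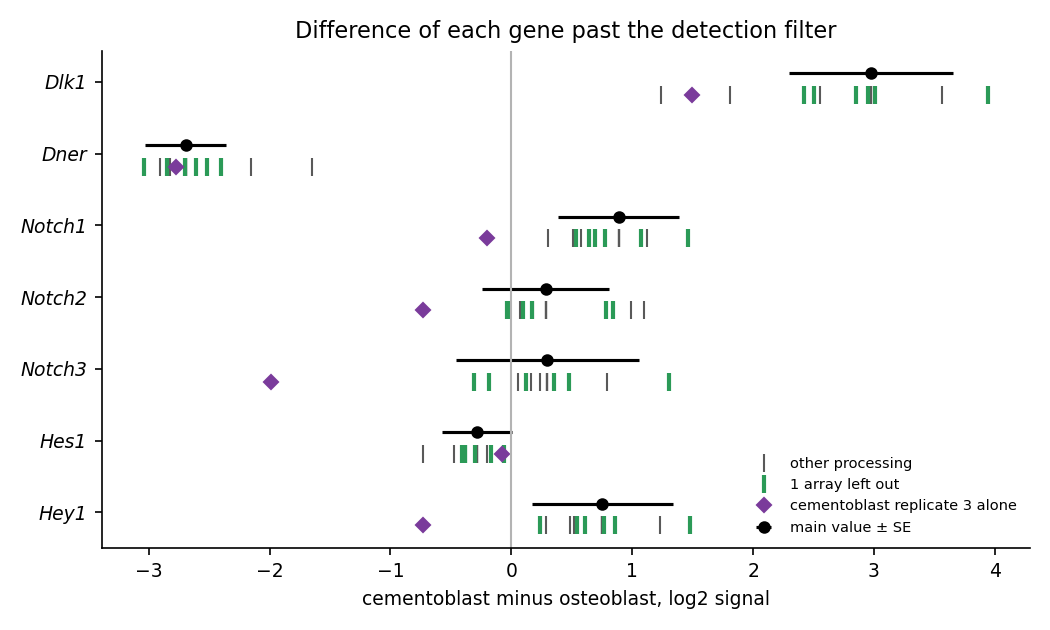
Log2 difference, cementoblast minus osteoblast (x axis), of the 7 genes past the detection filter, with the SE as a bar; ticks below each are the other processing settings and the fits with 1 array left out, and the diamond uses cementoblast replicate 3 only. Dlk1 stays above 0 (1.24 to 3.94) and Dner below it (-3.04 to -1.65), while the diamonds of Notch1, Notch2, Notch3 and Hey1 lie below 0.

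Dlk1, Dio3, Notch1, Notch3 and Hey1 were all highest on cementoblast replicates 1 and 2, the arrays that also held the most epithelial and endothelial signal. Endothelial markers, 11 on the array, had mean log2 signals of 6.54, 6.32 and 4.38 on cementoblast replicates 1, 2 and 3, against 4.61, 4.98 and 5.49 in osteoblasts. Of the 11, 10, 9 and 1 were detected on the cementoblast arrays, and 2, 8 and 10 on the osteoblast arrays; Kdr was detected on none. Epithelial markers had means of 7.44, 7.20 and 4.27 in cementoblasts, against 4.38, 4.26 and 4.24 in osteoblasts, led by Krt14 and Krt5, and Perp was detected on none. The 10 pericyte and smooth muscle markers had means of 5.97, 6.00 and 5.19 in cementoblasts, against 5.80, 5.79 and 6.15 in osteoblasts, and 7, 7 and 4 were detected in cementoblasts against 6, 10 and 10. The brightest of them, Acta2, the smooth muscle actin gene, stood at 10.74, 11.16 and 6.51 in cementoblasts, against 11.41, 11.89 and 11.69 in osteoblasts, low on the same array as Notch3, as its other 3 probes were. Rgs5, Mcam, Myh11 and Tagln were also lowest among the cementoblast arrays on replicate 3, at 4.11, 4.34, 4.16 and 4.17. None of these was detected there. Other genes of the list ran differently. Pdgfrb stood at 7.18, 7.48 and 7.94 in cementoblasts, against 7.51, 7.55 and 7.44 in osteoblasts. Cspg4 stood at 5.60, 5.82 and 6.44 in cementoblasts, against 5.94, 5.72 and 5.71 in osteoblasts. Both were highest on cementoblast replicate 3. Abcc9 and Des were lowest on cementoblast replicate 1, and no cementoblast array detected Kcnj8. Blood cell markers varied as well. Macrophage markers, 7 on the array, averaged 8.53, 7.48 and 4.85 in cementoblasts, against 5.03, 8.82 and 7.43 in osteoblasts, and 10 neutrophil markers averaged 10.96, 9.58 and 7.76 in cementoblasts, against 6.42, 9.43 and 9.01 in osteoblasts. Adipocyte markers, 7 on the array, were listed since Dlk1 is known from fat precursors, and 2 of them were detected on no array. Their mean signals lay between 4.82 and 5.40 in cementoblasts and between 5.05 and 5.31 in osteoblasts. The brightest, Lpl, was less even, at 9.66, 8.75 and 7.19 in cementoblasts, against 9.23, 10.07 and 10.07 in osteoblasts. Of 4 Schwann cell markers, 2, 2 and 2 were detected on the cementoblast arrays and 2, 3 and 2 on the osteoblast arrays. The part of these cells in the levels of Dlk1, Dio3, Notch1, Notch3 and Hey1 was not tested. Cementoblast replicate 3 detected 0 of 10 epithelial and 1 of 11 endothelial markers. It also detected 4 of 10 pericyte and smooth muscle markers and 9 of 10 neutrophil markers. Dlk1 was detected on it, with a difference on that 1 array of 1.50, against 2.98 over all arrays. Where the Dlk1 signal on that array came from was not tested.

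**Figure D5:**
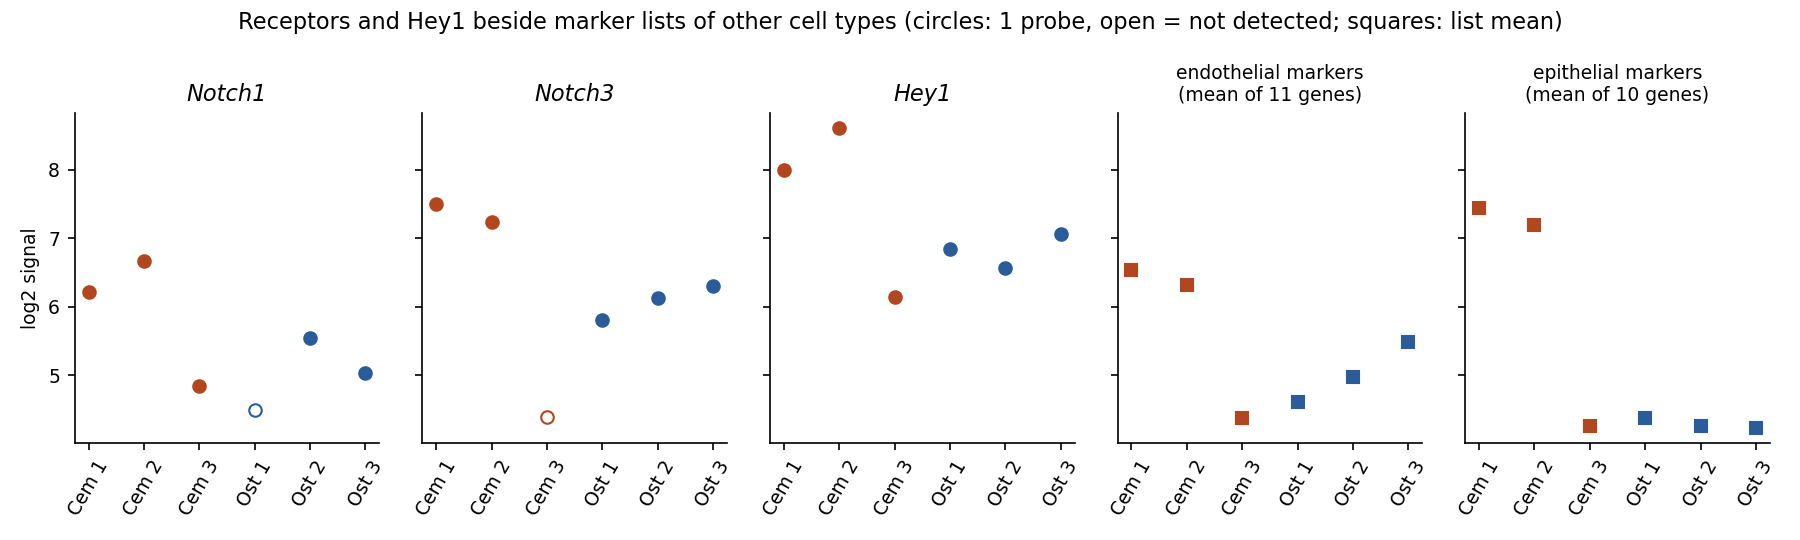
Log2 signal (y axis) of Notch1, Notch3 and Hey1 (circles, open where not detected) and the mean log2 signal of 11 endothelial and 10 epithelial marker genes (squares) on the 3 cementoblast (Cem) and 3 osteoblast (Ost) arrays. All 5 panels are highest on cementoblast replicates 1 and 2, and epithelial markers are at 4.27 on cementoblast replicate 3 and 4.24 to 4.38 in osteoblasts.

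The rest of the pathway was covered by a list of 50 further genes, of which 43 had a probe and 26 passed the filter. None passed the test over all genes by limma, beside 0.321% of all genes called, and 2 had an unadjusted p under 0.05, beside 6.92% of all genes. Of the 26, 15 lay above 0 and 11 below, where 47.5% of all genes lay above 0. Their median was 0.09 on the log2 scale, beside -0.02 over all genes. Neurl1a, a ubiquitin ligase that acts on Notch ligands, had the smallest p. It had log2 signals of 4.31, 4.25 and 4.85 in cementoblasts, against 7.03, 5.53 and 6.10 in osteoblasts, and was detected on cementoblast replicate 3 and all osteoblast arrays. Every cementoblast array lay below every osteoblast array, with a difference of -1.75 (SE 0.40; limma adjusted p = 0.187). Hes6, a Hes family member that counteracts Hes1, had 6.38, 6.19 and 7.79 in cementoblasts, against 5.96, 5.53 and 5.59 in osteoblasts, a difference of 1.09 (SE 0.43; limma adjusted p = 0.665). Its groups did not overlap at this probe, and its other 2 probes differed by 0.35 and 0.03.

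Among receptors and ligands outside the 10, Notch4, the endothelial receptor, had the third smallest p of the list. Its log2 signals were 6.30, 5.80 and 5.50 in cementoblasts, against 5.67, 4.84 and 5.34 in osteoblasts, with every array detecting it, and the groups overlapped (difference 0.58, SE 0.32; limma adjusted p = 0.855). A second Notch4 probe was detected on none. The Delta ligand gene Dll1 was detected on cementoblast replicates 1 and 2 and osteoblast replicate 3, at 4.93, 5.38 and 4.40 against 4.53, 4.29 and 4.41. Dll3 was detected on cementoblast replicate 2 alone, Jag2 on cementoblast replicate 1 and osteoblast replicate 2, and Dll4 on no array, and Dlk2 was not analysed here. Rbpj was detected on osteoblast replicates 1 and 2 at its brightest probe, at 4.33, 4.73 and 4.36 in cementoblasts and 5.56, 4.45 and 4.28 in osteoblasts. The difference there was -0.29. Another Rbpj probe was detected on 1 array, with 4.88 on cementoblast replicate 3, and differed by 0.31, in the other direction. The remaining Rbpj probe was detected on no array. Of the genes that cut the receptor, 6 of 8 passed the filter, and each array detected 6, with a median difference of -0.03. Of the nuclear genes, 5 of 8 passed, with a median of 0.16, and 4, 4 and 4 were detected on the cementoblast arrays, against 3, 8 and 6 on the osteoblast arrays. Of the inhibitors and ubiquitin ligases, 9 of 10 passed, with a median of 0.08. Of the glycosyltransferases that modify the receptors, Pofut1 and Poglut1 passed, with a median of -0.28, and of the other Hes and Hey genes, Hes6 and Hey2.

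The genes whose log2 signals ran most like those of Dlk1 and of Dner over the 6 arrays were picked from 8110 others by Pearson's r. For Dlk1 they were Sfrp1, a secreted Wnt antagonist (r = 0.995), Celsr2, an atypical cadherin (0.991), Tomm70a, a mitochondrial import receptor (0.990), and Slc6a17, a transporter (0.989), and Dio3 ranked 6 (0.989). Sfrp1 stood at 7.36, 8.10 and 5.68 in cementoblasts, against 4.62, 5.22 and 5.01 in osteoblasts, and repeated the low value of Dlk1 on cementoblast replicate 3. Celsr2 and Tomm70a were detected on 2 cementoblast arrays each and Slc6a17 on 3, all at signals below 6. On the osteoblast side Celsr2 was detected on 2 arrays, and Tomm70a and Slc6a17 on 1 each. Another Celsr2 probe was detected on no array and differed by -0.16, in the other direction. For Dner they were Mpp6, a membrane scaffold protein (r = 0.997), Efna5, an ephrin ligand (0.994), Kcnab1, a potassium channel subunit (0.991), and Adarb1, an RNA-editing enzyme (0.988). Mpp6 stood at 5.28, 5.60 and 5.54 in cementoblasts, against 6.50, 7.14 and 7.15 in osteoblasts, with osteoblast replicate 1 lowest of its group, as for Dner. Since a profile like that of Dner fixes a group difference, their differences are given without a test: -1.46 for Mpp6, -2.20 for Efna5 and -1.81 for Adarb1. Kcnab1 was detected at this probe on the 3 osteoblast arrays and on no cementoblast array. Second probes differed less in the same direction, by -0.41 for Efna5, -0.55 for Adarb1 and -1.41 for Kcnab1. The last was detected on 5 arrays. A further Kcnab1 probe was detected on 2 arrays and differed by -0.31. These correlations are the highest values among many over few arrays that share the group difference, and they are descriptions.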

How the data were processed

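The deposited non-normalized table holds, for each of 25697 probes, a linear bead intensity. It also holds a detection p-value for every signal, per the file headers. The second deposited table gives intensity values normalized by the submitters on the same linear scale; the submitters' processing notes name lumi, and the method used is not given in the sources used here. Titles identified the columns, except that both replicate 3 columns were identified by tissue code and by the replicate in the description, since their titles are numbered differently. Slide and scan date were not given in the sources used here.

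The neqc function (limma 3.58.1, R 4.3.3) corrected background with an offset of 16, normalized by quantiles and took log2. Probes with detection p under 0.05 on at least 3 arrays were kept (11198), and the brightest kept probe stood for a gene (8111 genes). Differences are cementoblast minus osteoblast, from lmFit and eBayes; p-values were adjusted by Benjamini-Hochberg over the 8111 genes, with a threshold of 0.05, and the fit was checked on simulated data. Samples are pools of mice, and whether calvaria and molars came from shared mice is not in the labels, so p-values measure the spread between these pools; their number limits the precision. The genes, lists and naming rule (all 10 genes; other pathway genes past the test or else the 3 with the smallest p; the 4 genes most like Dlk1 and Dner; the imprinted domain; marker lists by counts, with their brightest genes named) were chosen with earlier results of these data known. Kdr, Perp and the pericyte and smooth muscle genes other than Acta2 were named after their values were seen. The alternatives tried were scaling to the 75th percentile, the submitters' values, uncorrected background, 3 other filters, the mean of probes, trend and robust variance, array weights, a replicate block, leaving out each array, and cementoblast replicate 3 alone.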

Additional observations from a re-analysis of the deposited data

How the results depend on the processing

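The number of the 10 genes called (1) was 0 with 75th percentile scaling, the submitters' values, uncorrected background, no filter, the replicate block and cementoblast replicate 3 alone, 2 with array weights, and 0 to 2 with 1 array left out. Over all genes the 26 calls became 15 with uncorrected background, 14 with the submitters' values, 2 with 75th percentile scaling, 6 with detection on all 6 arrays, 8 with no filter, 40 with trend and robust variance, 199 with array weights, 0 with the replicate block (568 genes at an unadjusted p under 0.05), 7 with cementoblast replicate 3 alone, and 0 to 166 with 1 array left out. Of the other pathway genes 0 were called in 16 of 17 alternatives and 1 with array weights, with 0 in every fit that left out an array. The causes were not tested. Replicates 2 of the groups share a title number and an age range, as do replicates 3, while replicates 1 do not, and the labels do not say what the number marks. Same-numbered replicates 1, 2 and 3 correlated at -0.36, 0.36 and 0.09 in their deviations from the group means, so they were not treated as pairs; whether some are paired is not known. Dlk1 kept its direction in 16 of 16 alternatives (1.24 to 3.94), Dner in 17 of 17 (-3.04 to -1.65) and Hes1 in 17 of 17 (-0.73 to -0.06). Many of these could not have changed it. The other filters, the mean of probes, trend and robust variance and the replicate block left the differences of these genes at the main value. For Dlk1 and Dner, whose groups did not overlap, leaving out 1 array could hardly reverse the direction either. The direction changed in 3 of 16 for Notch2, in 3 of 16 for Notch3 and in 1 each for Notch1 and Hey1, among them cementoblast replicate 3 alone in all 4 (-0.73, -1.99, -0.20 and -0.73). Jag1, Heyl and Nrarp could be compared only under looser filters and lie too near background for a difference to be read.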
